A study of Mus musculus with 4 samples.

Results

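The insulin-like growth factor axis was followed through 82 single mouse brain cells. Its members were taken by name, as the rows Igf1, Igf2, Igf1r, Igf2r and Igfbp with a single digit, and 8 of the 15305 gene rows of the count table matched: the ligands Igf1 and Igf2, the receptors Igf1r and Igf2r, and the binding proteins Igfbp2, Igfbp4, Igfbp5 and Igfbp6. Igfbpl1, a related gene outside this name rule, is described below with a list of pathway genes. The cells came from Penk-Cre Ai9 mice, given as WT in the labels, in which Cre made under control of the Penk gene turns on the reporter tdTomato, so that a cell is marked if it or a precursor used the gene. Marked cells from dissociated subventricular and striatal tissue were sorted into plates, either with CD11b-stained cells removed (dataset A, 41 cells on 1 plate) or without that step (dataset B, 41 cells on 4 plates). For each dataset the labels name neuroblasts and quiescent neural stem cells as samples, but the columns name only dataset, plate and well, so no cell could be assigned to a labelled sample. The age, sex and number of the mice are not given in the sources used here.

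Igf1 and Igf2 are secreted peptides that act mainly through Igf1r, a receptor tyrosine kinase that promotes growth and survival. Igf2r binds Igf2 without such a kinase, carries it to lysosomes, and also sorts lysosomal enzymes that bear mannose 6-phosphate. The binding proteins hold the ligands in the extracellular fluid and can limit or prolong their action. In the adult brain, Igf2 is known from the choroid plexus, the epithelium that secretes cerebrospinal fluid, and from the meninges, and it acts on neural stem cells. Igf2 and Igf2r are both imprinted genes.

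Cells were grouped by the counts of a pair of genes that are no members. Enpp2, an abundant secreted enzyme of choroid plexus epithelium, made up 1% or more of the counts in 30 cells with Sox11 under 10 counts (Enpp2-rich cells, 14 in dataset A and 16 in dataset B). Sox11, a transcription factor of immature neurons, had 10 counts or more in 41 cells with Enpp2 under 1% (Sox11 cells, 16 and 25). Both conditions held in 2 cells and neither in 9, all 11 of dataset A. Just inside the Enpp2 limit lay cells at 1.25% and 1.93%, and just outside it a cell of dataset A at 0.999%. Sox11 was at 20 and 49 counts in the cells just inside its limit and at 7 and 2 counts just outside. These classes are ranges of measured counts and are not the study's annotation.

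Markers were checked in the classes. Of 14 choroid plexus genes, with Enpp2 left out because it set the class, the median Enpp2-rich cell had 11 at 10 counts or more in dataset A and 9.5 in dataset B, and the median Sox11 cell had 1 and 0. In dataset B Aqp1 and Slc4a5 were at 0 in every Enpp2-rich cell. Of 14 neuroblast genes, with Sox11 left out, the median Sox11 cell had 9 in dataset A and 11 in dataset B, and the median Enpp2-rich cell had 0 in both. The summed level of 13 astroglial and quiescent stem cell genes had a median of 27490 CPM in the 9 cells with neither mark, 241 and 1002 CPM in Enpp2-rich cells and 1146 and 3.71 CPM in Sox11 cells of datasets A and B. CPM are counts scaled to a cell or pool total of 1000000. The cell at 0.999% Enpp2 went against its class: 78.2% of its counts were Ttr, the main secreted protein of choroid plexus, and it had 13 choroid plexus and 10 neuroblast genes at 10 counts or more, Enpp2 and Sox11 among them. It was kept among the Sox11 cells by the rule, and pool levels that rest on it are also given without it. The Sox11 cell at 20 Sox11 counts, of dataset A, had 3 of 15 neuroblast genes at 10 counts or more, Sox11 included, where the class median there was 10. It was kept too and had no member at that level. Cells had 530630 to 7765650 counts, with medians of 2267700 and 2156814 in Enpp2-rich cells and of 1736262 and 2135576 in Sox11 cells of datasets A and B. No 2 cells had identical counts, and no doublet caller was run.

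The start regions of Igfbp2, Igf2r and Igf1r are shown, as the members found at 10 counts or more in at least 8 cells whose shares went the same way in both datasets. They stand here so that their base composition can be seen beside the levels below. They are RefSeq promoter sequences on GRCm38.p6, of 300 bases that end shortly after the start, and entries were found for 8 of 8 members. Capitals mark the GC box GGGCGG, read on both strands.

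Igfbp2, chr1:72824230-72824529, plus strand: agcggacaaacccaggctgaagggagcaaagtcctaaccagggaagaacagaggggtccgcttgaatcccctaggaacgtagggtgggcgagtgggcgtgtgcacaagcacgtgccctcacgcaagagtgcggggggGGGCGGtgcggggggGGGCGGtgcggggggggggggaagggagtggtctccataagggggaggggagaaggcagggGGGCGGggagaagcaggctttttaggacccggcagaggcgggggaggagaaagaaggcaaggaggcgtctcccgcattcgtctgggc
Igf2r, chr17:12769657-12769956, minus strand: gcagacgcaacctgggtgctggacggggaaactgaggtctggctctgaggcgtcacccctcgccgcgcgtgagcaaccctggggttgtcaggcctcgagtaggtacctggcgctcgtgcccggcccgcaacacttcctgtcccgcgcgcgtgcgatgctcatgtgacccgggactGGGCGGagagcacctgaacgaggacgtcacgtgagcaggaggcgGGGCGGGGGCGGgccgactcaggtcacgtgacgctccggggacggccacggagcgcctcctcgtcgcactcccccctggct
Igf1r, chr7:67952007-67952306, plus strand: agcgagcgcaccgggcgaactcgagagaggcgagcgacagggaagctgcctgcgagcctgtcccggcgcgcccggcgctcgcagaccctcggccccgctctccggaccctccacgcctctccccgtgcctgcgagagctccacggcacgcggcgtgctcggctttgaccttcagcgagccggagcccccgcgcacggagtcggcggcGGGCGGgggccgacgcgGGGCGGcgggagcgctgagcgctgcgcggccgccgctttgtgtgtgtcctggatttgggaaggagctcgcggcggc

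All 3 sequences were rich in G and C, at 67.0% for Igfbp2, 70.7% for Igf2r and 76.0% for Igf1r, where the median of 32851 promoters of this length was 52.7%. The GC box occurred 3 times for Igfbp2, 3 times for Igf2r and 2 times for Igf1r, and 35.7% of all these promoters held at least 1. None of the 3 held the TATA box letters TATAAA, found in 13.6% of all promoters, or TAATCC, the core bound by the choroid plexus factor Otx2, found in 7.06%. The other members varied: Igfbp4 had 0 GC boxes at 71.3% G and C, Igfbp5 had 0 at 56.3%, and the 4 Igf2 starts had 0 to 2 at 49.7% to 64.7%, with TAATCC in 1 of them. Igfbp2 has a second RefSeq start that holds none of these motifs, and counts per gene do not tell which start was used.

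The ligands were found in Enpp2-rich cells of dataset A. Igf2 had 10 counts or more in 8 of those 14 cells (57.1%, exact 95% interval 28.9% to 82.3%) and in no other cell of the table. The 8 cells held 11 to 119 counts, or 4.51 to 57.8 CPM with a median of 14.7. Igf2 was therefore detected in most of these cells but at low levels, and 2 more of them had 2 and 8 counts while 4 had 0. With the cells summed, Igf2 was at 9.21 CPM (340 counts, exact 95% Poisson interval 8.26 to 10.2 CPM). In dataset B it had 0 counts in all 41 cells, among them 16 Enpp2-rich cells, where 0 cells allows a share of up to 18.8% (3 of 16 cells, with an exact 95% upper bound of 20.6%) and a level of up to 0.0870 CPM (3 counts, with an exact upper bound of 0.107 CPM).

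The Sox11 cells had 8 Igf2 counts in all, at 0.272 CPM in dataset A, every one of them in the Ttr-rich cell at 0.999% Enpp2. Without that cell the Sox11 cells of both datasets were at 0. With each cell thinned to 500000 counts, 4 of 14 Enpp2-rich cells (28.6%) kept 10 counts or more. Intervals here cover counting error only, since PCR reads without molecular identifiers are not independent molecules.

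The absence of Igf2 from dataset B is set beside other rows as a description and not as a test. Igf2 enters these rows through dataset A, where it is high, and just meets their rule with 8 cells. Of 353 rows at 10 counts or more in at least 8 Enpp2-rich cells of dataset A, 2 (0.567%) had 0 counts in every dataset B cell, Igf2 and Mia, a rule set after these values were seen. Below that limit of 8 cells, the choroid plexus genes Aqp1 and Slc4a5 and the genes Ins2, Grb10, Plagl1, Vtn and Igf1 were also at 0 throughout dataset B. Over all 15305 rows, 3372 were at 0 in every dataset B cell and 6224 in every dataset A cell. Low counts were more frequent in dataset A, where 36.6% of all values above 0 and 22 of 69 member values were 1 to 9 counts, against 27.8% and 1 of 35 in dataset B. The sort gate, the plate and the dataset go together, so their parts in the absence of Igf2 from dataset B cannot be told apart. Reads of Igf2, of its antisense partner Igf2os and of the neighbouring Ins2 may not be separable, as the use of strand in counting is not given in the sources used here. Ins2, an insulin gene, reached 10 counts in 6 cells, all of dataset A, of which 3 were Igf2 cells. The highest Ins2 cell, in neither the Enpp2-rich nor the Sox11 class, held 86.4% of all Ins2 counts and 0 Igf2 counts. Igf2os was not analysed here.

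Igf1 was found at 10 counts or more in 2 cells, both Enpp2-rich and of dataset A (14.3%, exact 95% interval 1.78% to 42.8%). They held 957 and 1095 counts, at 431.8 and 472 CPM. These 2 cells also had Igf2 and Igfbp2 at 10 counts or more, and every other Enpp2-rich cell had 0 Igf1 counts. Igf1 is also made by microglia, and dataset A was sorted to leave out cells stained for the myeloid protein CD11b. A gene of a 12-gene microglia and myeloid list had 10 counts or more in 1 of the 2 Igf1 cells, and 11 of the 12 had 0 counts in all Enpp2-rich cells of dataset A. Their part in the Igf1 counts was not tested. The Sox11 cells of dataset A had 9 Igf1 counts in all (0.306 CPM), and dataset B had 0 in 41 cells.

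**Figure D1:**
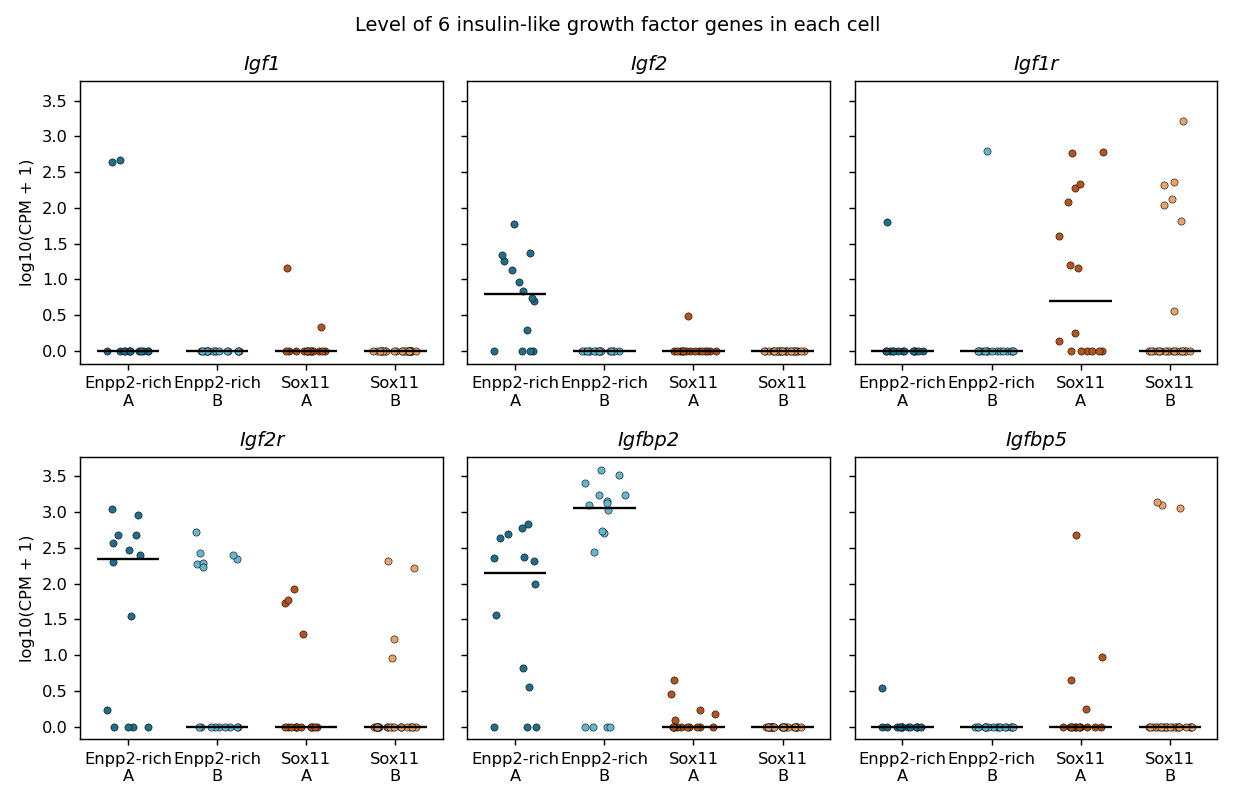
Level of 6 members in every Enpp2-rich and Sox11 cell, as log10(CPM + 1), by dataset. Points are cells, with random sideways scatter, and bars are medians. Igfbp2 stands above 2 in most Enpp2-rich cells and under 1 in every Sox11 cell, Igf2 is seen above 0 in dataset A alone, and Igf1r is seen mainly in Sox11 cells.

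Among the receptors, Igf1r was found mainly in Sox11 cells and Igf2r mainly in Enpp2-rich cells. Igf1r had 10 counts or more in 7 of 16 Sox11 cells of dataset A (43.8%, exact 95% interval 19.8% to 70.1%) and in 6 of 25 of dataset B (24%, 9.36% to 45.1%). It did so in 1 of 14 Enpp2-rich cells of dataset A (7.14%, 0.181% to 33.9%) and 1 of 16 of dataset B (6.25%, 0.158% to 30.2%). The direction was the same in both datasets, but the intervals of the classes overlapped in each. By plate of dataset B, the positive Sox11 cells were 5 of 12 on P1, 0 of 6 on P2, 0 of 3 on P3 and 1 of 4 on PL4. Enpp2-rich cells lay mostly on PL4 (10 cells), with 2 on P1 and 4 on P3. Class and plate therefore go together in part, and the part of the plate was not tested. The summed astroglial and quiescent stem cell genes had a median of 357 CPM in the 13 Igf1r-positive Sox11 cells and 4.71 CPM in the other 28, with a gene at 10 counts or more in 10 of 13 and 14 of 28. For choroid plexus genes the medians were 16.8 and 1.39 CPM, with a gene at that level in 8 of 13 and 11 of 28. These values pool the datasets, and the choroid plexus genes include Enpp2, which set the classes. Dataset A gave 7 of the 13 positive cells, the Ttr-rich cell among them. Astroglial medians over all Sox11 cells were 1146 CPM in dataset A and 3.71 CPM in dataset B, so the mix of datasets enters the difference. The part of these genes and of the dataset in the Igf1r counts was not tested.

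Where Igf1r was at 10 counts or more, the Sox11 cells spanned 14.8 to 602 CPM in dataset A (median 190.0, lowest 39.1 without the Ttr-rich cell) and 63.8 to 1629 CPM in dataset B (median 171). Pool levels were 104.6 and 75.5 CPM in Sox11 cells and 3.01 and 37.4 CPM in Enpp2-rich cells of datasets A and B, so Sox11 cells were 34.8-fold higher in dataset A and 2.02-fold higher in dataset B. Without the Ttr-rich cell Igf1r was in 6 of 15 Sox11 cells of dataset A, with a ratio of 39.4. The whole Enpp2-rich value of dataset A came from 1 cell with 111 counts, and without it the other 13 were at 0. The ratio in dataset B rested on single cells on both sides. The whole Enpp2-rich value of dataset B came from 1 cell with 1289 counts, and 1 Sox11 cell gave 61.0% of its pool. Without that Sox11 cell its pool fell to 30.3 CPM, below the Enpp2-rich pool, and without the Enpp2-rich cell the other 15 were at 0.

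Igf2r had 10 counts or more in 9 of 14 Enpp2-rich cells of dataset A (64.3%, exact 95% interval 35.1% to 87.2%) and in 7 of 16 of dataset B (43.8%, 19.8% to 70.1%). In Sox11 cells it did so in 4 of 16 (25%, 7.27% to 52.4%) and 4 of 25 (16%, 4.54% to 36.1%). Shares were larger in Enpp2-rich cells in both datasets, with overlapping intervals. The Igf2r-positive Enpp2-rich cells held 34.1 to 1118 CPM in dataset A (median 364) and 169 to 518 CPM in dataset B (median 217). The Igf2r-positive Sox11 cells held less, with medians of 54.9 CPM in dataset A (range 18.9 to 83.9, or to 57.4 without the Ttr-rich cell) and 89.6 CPM in dataset B (8.16 to 207). In dataset A only 1 Igf2r-positive Enpp2-rich cell lay at or below the highest Sox11 cell. In dataset B Enpp2-rich cells at 169, 188 and 193 CPM lay below the highest Sox11 cell, at 207 CPM. Over both datasets, choroid plexus genes summed to a median of 714 CPM in the 8 Igf2r-positive Sox11 cells and 2.01 CPM in the other 33. A gene of that list was at 10 counts or more in 5 of 8 and 14 of 33. These values pool the datasets and include Enpp2, which set the classes. Dataset A gave 4 of the 8 positive cells, the Ttr-rich cell among them. With Enpp2 left out, 0 genes of the list reached 10 counts in any dataset B Sox11 cell. The part of these genes and of the dataset in the Igf2r counts was not tested.

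Pool levels of Igf2r were 293 and 113 CPM in Enpp2-rich cells and 18.3 and 16.1 CPM in Sox11 cells, a ratio of 15.97 in dataset A and 7.04 in dataset B. In dataset A the Ttr-rich cell gave 61.2% of the Igf2r counts of the Sox11 cells. Without it Igf2r was in 3 of 15 cells at 8.20 CPM, and the ratio became 35.7. In dataset B 1 Sox11 cell gave 59.3% of the Igf2r counts, and without it that pool was at 6.85 CPM and the ratio 16.5. Airn, the noncoding antisense transcript that overlaps Igf2r, reached 10 counts in no cell, though reads of the pair cannot be told apart if strand was not used.

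**Figure D2:**
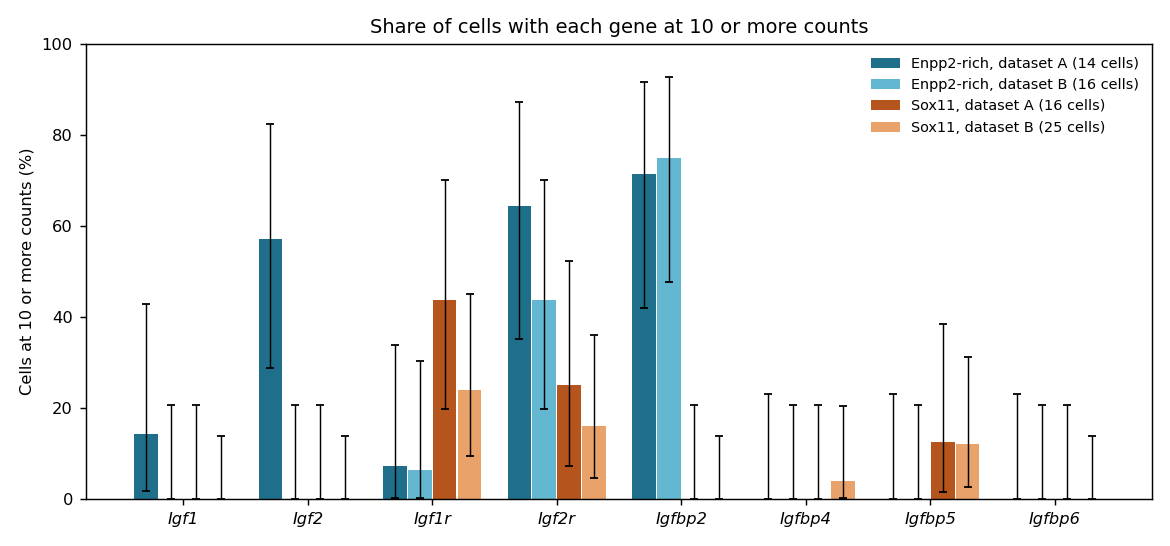
Percentage of cells with each of the 8 members at 10 counts or more, by class and dataset. Bars are shares of cells and error bars are exact 95% binomial intervals. Igfbp2 reaches 71.4% and 75.0% of Enpp2-rich cells and 0 Sox11 cells, while Igf1r has its largest shares in Sox11 cells.

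Igfbp2, a binding protein with a preference for Igf2, was the member that set the classes furthest apart. It had 10 counts or more in 10 of 14 Enpp2-rich cells of dataset A (71.4%, exact 95% interval 41.9% to 91.6%) and in 12 of 16 of dataset B (75.0%, 47.6% to 92.7%). No Sox11 cell reached 10 counts, which allows a share of up to 18.8% in dataset A and 12% in dataset B by the limit of 3 cells (exact 95% upper bounds of 20.6% and 13.7%). Other rows with this pattern are given as a description and not as a test, since Igfbp2 enters them through the class where it is high. Of 315 rows at 10 counts or more in at least 50% of the Enpp2-rich cells of each dataset, 6 (1.90%) reached that level in no Sox11 cell, namely Igfbp2, Stk39, Ahcyl2, Cox8b, Cpne2 and Cfap298, a rule set after these values were seen.

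Pools of Enpp2-rich cells held 189 CPM of Igfbp2 in dataset A (6963 counts) and 1204 CPM in dataset B (41525 counts). Pools of Sox11 cells held 0.374 CPM in dataset A (11 counts over 5 cells, none above 6 counts) and 0 in dataset B. Enpp2-rich cells were thus 504-fold higher in dataset A. Without the Ttr-rich cell this ratio was 481, and without the Sox11 cell with 6 of the 11 counts it was 1045. In dataset B a floor of 3 counts over the Sox11 pool gave a ratio of 20584. This is no lower bound, since the floor covers counting error only and 0 of 25 cells allows up to 13.7% positive cells. The single cells spread widely within the Enpp2-rich class. In dataset A the 10 positive Enpp2-rich cells held 2.58 to 672 CPM (median 230.1), and in dataset B the 12 positive cells held 278 to 3924 CPM (median 1365).

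Igfbp2 differed in level between the datasets while its share of cells was similar. The median over all Enpp2-rich cells was 150.3 CPM in dataset A and 1152 CPM in dataset B. Of 16 Enpp2-rich cells in dataset B, 9 lay above the highest of dataset A, and 0 of 14 cells in dataset A lay above the median of dataset B. Ttr took 28.7% of the counts of the Enpp2-rich pool in dataset A and 7.81% in dataset B, and Enpp2 took 17.1% and 12.2%. With both genes left out of the totals the ratio of the pools, dataset B over dataset A, fell from 6.39 to 4.33. Igf2r went the other way, at 0.387 of its dataset A level in dataset B, and at 0.262 with both genes left out of the totals. Each gate has 1 dataset and cells are not replicates, so these differences between datasets were not tested.

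Igfbp2-positive cells lay on each plate that held Enpp2-rich cells. In dataset B they were 8 of 10 on plate PL4, 3 of 4 on P3 and 1 of 2 on P1, and in dataset A 10 of 14 on the only plate. Igfbp2 is also known from stromal and meningeal cells, whose markers were looked at in the 22 positive Enpp2-rich cells. Of 3 stromal fibroblast genes in the table, a gene reached 10 counts in 2 of 22 positive and in 1 of 8 other Enpp2-rich cells, with Col1a1 at 0 in both. Of 3 endothelial genes none reached 10 counts in any Enpp2-rich cell. The summed level of 13 choroid plexus genes, without Enpp2 and Ttr, had a median of 16919 CPM in positive and 19040 CPM in other Enpp2-rich cells of dataset A, and of 11783 and 7993 CPM in those of dataset B, so the direction differed between datasets. Ependymal genes moved with Igfbp2: of 3 in the table, a gene reached 10 counts in 14 of 22 positive and in 2 of 8 other Enpp2-rich cells. Their summed level had a median of 0 CPM in Enpp2-rich cells of dataset A and 309.8 CPM in those of dataset B, the dataset with more Igfbp2. In the positive cells alone it was 14.7 and 445 CPM. Their part in the Igfbp2 levels was not tested.

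Igfbp5, which binds to extracellular matrix as well as to the ligands, was rare and found in Sox11 cells alone at 10 counts or more. In dataset B 3 of 25 Sox11 cells (12%, exact 95% interval 2.55% to 31.2%) held 2674, 2681 and 3200 counts, or 1132 to 1401 CPM, and the other 22 held 0. In dataset A 2 of 16 Sox11 cells (12.5%, 1.55% to 38.4%) held 17 and 253 counts. The positive cells of dataset B were thus close to each other in level and stood apart from all others. Astroglial and quiescent stem cell genes had a median summed level of 1586 CPM in the 5 positive Sox11 cells and 20.6 CPM in the other 36, with a gene at 10 counts or more in 4 of 5 and 20 of 36. These values pool the datasets, whose medians over all Sox11 cells were 1146 CPM in dataset A and 3.71 CPM in dataset B. The part of these genes and of the dataset in the Igfbp5 counts was not tested. Pools of Sox11 cells held 9.45 and 166.8 CPM, and pools of Enpp2-rich cells 0.135 CPM (5 counts in 1 cell) and 0 in datasets A and B. In dataset A a single cell gave 91.0% of the Sox11 counts, and without it the level was 0.865 CPM.

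Igfbp4 reached 10 counts in 1 cell, a Sox11 cell of dataset B with 492 counts (197 CPM), and had 2 counts elsewhere in the table. That cell also had the highest summed level of microglia and myeloid genes among Sox11 cells of dataset B, at 187.6 CPM, where the median was 5.14 CPM and CD11b-stained cells were not removed. Their part in the Igfbp4 counts was not tested. Igfbp6 had 1 count, in a dataset A cell of neither class, and so was not detectable at this depth in either class.

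Levels of different members were compared per kilobase of exon sequence, with exon lengths from GENCODE vM39. In Enpp2-rich cells of dataset A the order was Igfbp2 at 90.7 CPM per kilobase, Igf2r at 31.2, Igf1 at 5.43, Igf2 at 1.49 and Igf1r at 0.152. In dataset B it was Igfbp2 at 579, Igf2r at 12.1 and Igf1r at 1.89. In Sox11 cells of datasets A and B Igf1r was at 5.29 and 3.82, Igf2r at 1.96 and 1.71, and Igfbp5 at 1.57 and 27.8. Both datasets had the order Igfbp2, Igf2r, Igf1r in Enpp2-rich cells, with Igf1r from 1 cell in each. Igf1r stood before Igf2r in Sox11 cells of both, with single cells weighing on both. Without the highest Sox11 cell of each gene, Igf1r was at 3.63 and 1.53 and Igf2r at 0.875 and 0.731 in datasets A and B, where the cell left out for Igf2r in dataset A is the Ttr-rich cell. Without that of Igf1r alone, Igf1r of dataset B lay below Igf2r. The Igf1 place comes from 2 cells and the Igfbp5 places from 2 cells in dataset A and 3 in dataset B, and none has a firm rank against its neighbours.

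The members were then followed cell by cell. At least 1 member had 10 counts or more in 25 of 30 Enpp2-rich cells (83.3%, exact 95% interval 65.3% to 94.4%) and in 21 of 41 Sox11 cells (51.2%, 35.1% to 67.1%), and 2 or more did in 18 and 6 cells. In Enpp2-rich cells of dataset B all 7 Igf2r-positive cells were Igfbp2-positive, 5 cells had Igfbp2 alone and 4 had neither. In dataset A 6 cells had both, 4 had Igfbp2 alone, 3 had Igf2r alone and 1 had neither. Igf2 cells were mostly Igfbp2 cells, as 7 of 8 had Igfbp2 at 10 counts or more, and 4 of 8 had Igf2r. The ligand and its signalling receptor Igf1r met in 1 cell of 8. In Sox11 cells 4 cells, the Ttr-rich cell among them, had both receptors, 9 had Igf1r alone, 4 had Igf2r alone and 24 had neither.

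**Figure D3:**
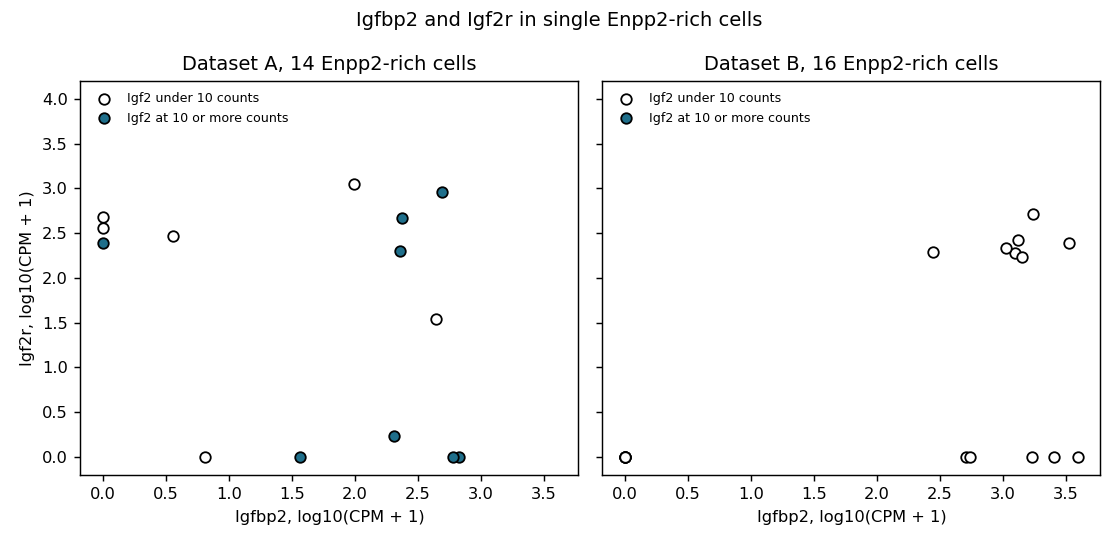
Igfbp2 against Igf2r in each Enpp2-rich cell, both as log10(CPM + 1), for datasets A and B. Filled points are cells with Igf2 at 10 counts or more. In dataset B Igf2r is seen only in cells with Igfbp2 and no point is filled, while in dataset A 3 cells have Igf2r at 10 counts or more with Igfbp2 under 10 counts.

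Within Enpp2-rich cells, Spearman's rho of Igfbp2 with Enpp2 was 0.241 over 14 cells in dataset A and 0.621 over 16 cells in dataset B. For Igf2r with Enpp2 it was 0.333 and 0.311, and for Igfbp2 with Igf2r it was -0.284 and 0.359. These are descriptions of cells that share a dataset, on 1 plate in dataset A and on plates P1, P3 and PL4 in dataset B. The last pair changed sign between datasets.

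The genes most like each member were found by Spearman's rho of log2(CPM + 1) over all 82 cells, among rows at 10 counts or more in at least 8 cells. For Igfbp2 they were Rbm47 (0.755), Ecrg4 (0.739), Clic6 (0.736), Ptgds (0.730) and Kl (0.716), of which Ecrg4, Clic6 and Kl were on the choroid plexus list. For Igf2 they included Slc4a5 (0.758), a choroid plexus bicarbonate carrier, Col9a3 (0.683), Slc22a17 (0.641) and Ephx1 (0.626). For Igf2r they were Defb11 (0.571), Cd63 (0.558), a lysosomal membrane protein gene, Prlr (0.551), Ptgds (0.551) and 2900040C04Rik (0.549). Igf1r had weaker likeness, with Pipox (0.524), Ppp1r9a (0.519), Rhobtb3 (0.514), Pigb (0.513) and Gm17922 (0.512). These values describe cells of different classes, datasets and depths and carry no p. Slc4a5, like Igf2, was at 0 in every dataset B cell, and 5 cells had both at 10 counts or more.

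The classes were tested on pooled counts, 1 pool per class and dataset. With 2 pools against 2, the quasi-likelihood test of edgeR placed 0 of 7187 genes past an adjusted p of 0.05 (0%), with 1013 at an unadjusted p under 0.05. Of the 8 members, 5 passed the filter on low counts and 0 were called, with 2 at an unadjusted p under 0.05, while DESeq2 called 1392 of the same 7187 genes and 2 members. With low-count genes kept DESeq2 called 3171 of 13097 genes and 3 members. Igfbp2 had a log2 difference, Enpp2-rich over Sox11, of 12.04 (SE 2.99, edgeR adjusted p 0.239) and was higher in both Enpp2-rich pools. Igf2r had 4.35 (SE 1.51, edgeR adjusted p 0.323), likewise higher in both. Igf1r had -1.98 (SE 2.25, edgeR adjusted p 0.906), lower in both. The differences of Igfbp5, -9.24 (SE 4.35), and Igf1, 8.39 (SE 5.88), had edgeR adjusted p of 0.411 and 0.698. Fitted differences of genes with an empty pool depend on the prior count and are no bounds. The median of the 5 members was 4.35, beside -0.50 over all 7187 genes.

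By shares of cells, Igfbp2 and Igf2r were in a larger share of Enpp2-rich cells in both datasets, as were 27.8% of the 4053 rows at 10 counts or more in at least 8 cells. Igf1r was in a larger share of Sox11 cells in both datasets, as were 42.4% of those rows. The directions alone were therefore common among rows of this table. Igf2, the fourth member in 8 or more cells, had 0 cells in both classes of dataset B and so no direction there.

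A list of 54 genes around the axis set the members beside their pathway, and 40 were in the table. Of these, 25 passed the filter and edgeR called 0, with 2 at an unadjusted p under 0.05, while 11 were higher in Enpp2-rich and 14 in Sox11 pools with a median log2 difference of -1.51. Over all 7187 genes 3094 were higher in Enpp2-rich and 4093 in Sox11 pools. By shares of cells at 10 counts or more, 6 of 40 were more frequent in Enpp2-rich cells in both datasets and 10 of 40 in Sox11 cells. Of the 16 list genes in at least 8 cells, the numbers were 5 and 8 (31.3% and 50%), near the 27.8% and 42.4% of all such rows. The 6 of 40 were Akt2, Mtor, Rps6, Ctsd, Ide and Furin, and the 10 of 40 were Insr, Igfbpl1, Pik3ca, Pik3r1, Pik3r2, Tsc1, Tsc2, Foxo3, Gsk3b and Igf2bp3. Mtor, Pik3r2 and Igf2bp3 were in fewer than 8 cells. The edgeR test called none of the genes named here.

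Among genes that act on the ligands outside or inside the cell, Ctsd, a lysosomal protease that Igf2r helps to sort, was at 1418 and 663 CPM in Enpp2-rich and 503 and 112 CPM in Sox11 pools of datasets A and B, a log2 difference of 2.46 (SE 1.28, edgeR adjusted p 0.476). Without their highest cell the Sox11 pools were at 178 and 66.7 CPM. Ctsd had 10 counts or more in 13 of 14 and 12 of 16 Enpp2-rich cells and in 5 of 16 and 6 of 25 Sox11 cells. Ide, a protease that degrades insulin, was at 78.9 and 73.3 CPM in Enpp2-rich pools and at 7.99 and 0 CPM in Sox11 pools. These levels come from 2 and 3 Enpp2-rich cells and 1 Sox11 cell at 10 counts or more, and without the highest cell of each pool they were 26.9, 33.8, 0.0712 and 0 CPM. Furin, which cleaves hormone precursors, stayed under 3 CPM in every pool.

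Among the signalling genes, Gsk3b, a kinase inhibited by Akt, had 10 counts or more in 15 of 16 and 25 of 25 Sox11 cells, at 1854 and 3342 CPM, and in 7 of 14 and 14 of 16 Enpp2-rich cells, at 139 and 1184 CPM. Pik3r1, a regulatory subunit of the lipid kinase downstream of Igf1r, did so in 3 of 16 and 5 of 25 Sox11 cells and in no Enpp2-rich cell. Insr, the insulin receptor, did so in 9 of 82 cells. Irs1 and Irs2, the adaptors that join these receptors to the kinase, did so in 6 cells and 1 cell.

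Igfbpl1, a related gene that its name keeps out of the members, had 10 counts or more in 2 of 16 and 6 of 25 Sox11 cells (13.0 and 76.6 CPM) and in no Enpp2-rich cell. Grb10 and Plagl1, both imprinted genes, were seen at 10 counts or more in 3 and 2 Enpp2-rich cells of dataset A, with 0 counts in dataset B. Both had counts in the Enpp2-rich pool of dataset A and in neither Sox11 pool, did not pass the filter and were not tested. Of their cells, 2 and 0 had Igf2 at 10 counts or more. Ins2 (6 cells), Vtn (3 cells) and Igf1 (2 cells) also reached 10 counts in dataset A alone, with 0 counts in dataset B. The share of all rows with this pattern was not determined, so nothing is drawn from imprinting here. Cdkn1c, also imprinted, was instead found in 3 Enpp2-rich cells of dataset B.

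**Figure D4:**
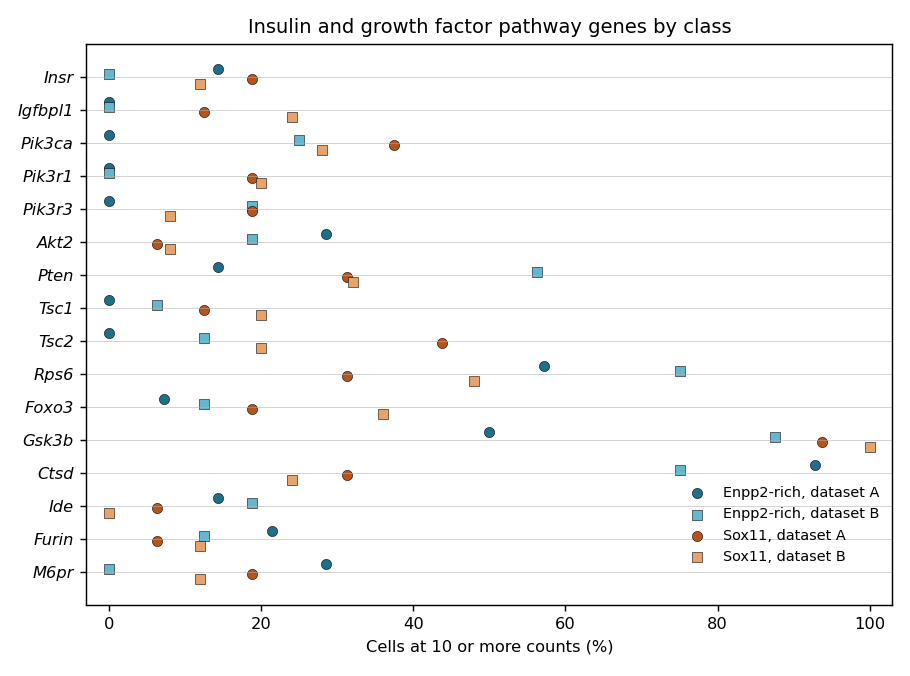
Percentage of cells with 10 counts or more for the 16 pathway list genes that reached this level in at least 8 cells, by class (colour) and dataset (circles for A, squares for B). Ctsd and Rps6 lie further right in Enpp2-rich cells, and Gsk3b and Tsc2 in Sox11 cells, in both datasets.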

How the data were processed

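The deposited table holds the authors' counts for each gene in each cell, whole numbers that were not normalized. Libraries were made by template switching and PCR preamplification, per the labels' protocols. STAR 2.7.10b, featureCounts, Subread 2.1.1 and FastQC 0.12.1 are listed in the submitters' processing notes, with the builds GRCm39 and mm10 and no roles. The annotation, the use of strand and filters are not given in the sources used here. No cell was left out, and the run list of the series went unused.

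Counts were scaled to CPM and summed by class and dataset (4 pools). Pools were compared by the quasi-likelihood test of edgeR (4.0.16, filterByExpr, TMM) with Benjamini-Hochberg adjustment over all genes but Enpp2 and Sox11, and DESeq2 (1.42.0) was an alternative. The script was tested on simulated data. The comparison replaces a comparison of the labelled samples. Whether the pools come from separate animals is not given, so p-values measure the spread between these pools. Both pools of a dataset share its label and sort gate, which pairs them, and their deviations correlated at 0.316 over 7189 genes. The number of sorts behind each dataset was not established here. Scripts ran in Python 3.11.15 (matplotlib 3.10.9, pandas 2.3.3, scipy 1.17.1) and R 4.3.3.

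The text names all members, genes of a 54-gene pathway list, and for members at 10 counts or more in 8 cells the 5 most like genes; others were named after their values were seen. Of the genes most like Igf2, 1 is not reported here. Members and lists were chosen with earlier results of these data known. The alternatives were size factors, filters, the class limits, the minimum count, thinning, the block, and leaving out pools or cells.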

Additional observations from a re-analysis of the deposited data

Results flagged for a closer look

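Members were also found in 3 of the 11 dataset A cells that entered neither class, above the limit that 0 counts allows. A cell with both marks, at 3.45% Enpp2 and 443 Sox11 counts, held 849 Igfbp2 counts and 19 Igf1r counts. The other cell with both marks, at 1.93% Enpp2 and 85 Sox11 counts, held 30 Igf2r counts. Of the 9 cells with neither mark, 1 held a member at 10 counts or more, with 1119 Igf1r counts (530.3 CPM). No comparison uses these cells.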

How the results depend on the processing

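The count of 0 called genes (edgeR) stayed at 0 with RLE size factors, library size alone, pools without their deepest cell, Enpp2 limits of 0.5% and 2%, a Sox11 limit of 100 counts, thinned cells and the replicate block, which left 606 genes at an unadjusted p under 0.05. It was 369 when genes of low counts were kept. DESeq2 called 1392 of the same 7187 genes, and 3171 with low-count genes kept. With any 1 pool left out it was 0 to 195, the highest without Sox11 cells of dataset A (195) and next without those of dataset B (109). These fits assume that the remaining pool of a class varies as the other class does. The cause of these changes was not tested.

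The 5 tested members kept their direction in each alternative that gave a value. Igfbp2 ranged from 10.76 to 17.85 on the log2 scale, with adjusted p of 1.28e-05 to 0.392, and was past 0.05 with low-count genes kept, with DESeq2 and with either Sox11 pool left out. Igfbp5 passed with DESeq2 alone (adjusted p 0.00544 over the same genes and 0.0145 with low-count genes kept), and Igfbp4 with DESeq2 and low-count genes kept. Igf2r ranged from 2.80 to 4.96 and Igf1r from -4.08 to -1.20, never past it. The replicate block changed no call of a member. The median of all genes was -0.50 with TMM, -0.64 with RLE and -0.96 with library size alone.

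Of 93 shares of cells recomputed for single members, 91 stayed within the interval of the value reported. The others were Igf2 in Enpp2-rich cells of dataset A, at 28.6% with thinned cells and 7.14% with a minimum of 100 counts. Library size alone, DESeq2 over the same genes, the totals without Ttr and Enpp2 and the removal of the Ttr-rich cell were added after seeing the data. With 82 cells in 2 datasets, a share of 0 in a class still allows some positive cells.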
